A study of Mus musculus with 2 samples.

Results

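The genes of the cytosolic ribosomal proteins were examined in mouse hematopoietic stem cells (HSCs), self-renewing cells of the marrow from which every blood lineage descends. Members were taken by symbol: Rpl or Rps with a number and at most 1 closing letter (a, l or x), Rplp0 to Rplp2, and Rpsa. This gave 81 of the 24421 genes counted, 49 of the large subunit and 32 of the small subunit. The WT library came from Ezh2 +/+ CreERT+/- cells and the other from cells given as Ezh2 Δ/Δ CreERT+/-, both on C57BL/6, and there was 1 library of each. Both donor genotypes carried the Cre-ERT transgene, a recombinase that acts once tamoxifen is given. Per the labels, CD45.2 marrow was transplanted into irradiated CD45.1 recipients, tamoxifen was given to both at 100 µl of 10 mg/ml daily over 5 days, and HSCs were sorted 1 month later from lineage-negative Sca-1+ c-kit+ marrow as CD150+, CD48-, CD34- and Flt3-. CD45.2 is not listed among the sort markers, and the age of the mice, the number pooled and the promoter of the transgene were not given in the sources used here. Ezh2 encodes the main methyltransferase of Polycomb repressive complex 2.

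The ribosome joins a small subunit, which holds the mRNA and reads its codons, to a large subunit, which forms the peptide bond and lets the new chain out through a tunnel. Each subunit is built from ribosomal RNA and many small proteins, most of which are needed in equal numbers. The mRNAs of these proteins are among the most abundant in dividing cells. Most of these mRNAs start with a run of pyrimidines, through which growth signals tune their translation. HSCs are known for a low rate of protein synthesis, and loss of a single copy of certain ribosomal protein genes causes red cell failure. These genes also have many intronless copies scattered over the genome, which bears on how their short reads can be counted.

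Gene counts summed to 5763118 in WT and to 4157280 in the library with the label Ezh2 KO. The floor used here, 3 counts, corresponds to 0.521 and 0.722 CPM, counts scaled to a common library total. Ezh2 itself had 166 and 129 raw counts, which is 142 and 150 after scaling. The log2 ratio was 0.08 (counting interval -0.27 to 0.42), so the level of Ezh2 RNA does not separate the libraries. The assay counted the whole gene and did not resolve the deleted part, and the second library is therefore called KO-labelled throughout. All 11 HSC markers were detected in both libraries, with summed levels of 4956 and 4703 CPM, and 7 of the 11 were lower in the KO-labelled library, among them Mycn at a log2 ratio of -1.07 and the sort marker Slamf1 (CD150) at -0.62. Eosinophil genes summed to 2.08 CPM in WT and 782 CPM in the KO-labelled library, and 6 of the 9, Prg2 and Epx included, were at 0 in WT. All 9 had a log2 ratio above 0, but Siglecf and Ccr3 each had 5 raw counts in WT and 4 in the KO-labelled library. The ratio of each was 0.10, with a counting interval of -2.21 to 2.34 that spans 0. Neutrophil genes went from 2098 to 3918 CPM (7 of 10 higher), erythroid genes from 1841 to 2320 CPM (7 of 9 higher), B lymphoid genes from 48.4 to 96.9 CPM (9 of 11 higher) and T cell genes from 0.694 to 2.65 CPM (2 of 5 higher). Most of the erythroid sum was Car2 alone, at 1713 CPM in WT and 2066 CPM in the KO-labelled library. Hemgn was lower at a log2 ratio of -0.55, and the intervals of Alas2 (-0.10) and Gata1 (0.07) spanned 0. Megakaryocyte genes went from 556 to 289 CPM, with 3 of 5 lower. The genes of surface antigens that the sort excluded summed to 199 and 268 CPM, with 6 of 7 higher in the KO-labelled library. Most of that sum was Cd34, at 166 and 199 CPM. The counting interval lay wholly above 0 for Cd34, Flt3 and Itgam and spanned 0 for Cd48. Cd4, Cd8a and Il7r had at most 4 raw counts in either library. For comparison, of the 12588 genes with a mean of at least 1 CPM, 49.6% were higher and 50.4% lower in the KO-labelled library. Some of these marker lists also hold genes below that mean. The part of the marker genes in the values below was not tested. In bulk RNA a different cell makeup and a different amount of RNA per cell cannot be told apart. With 1 library per group there was no replicate check and no test. Intervals on ratios are exact 95% Clopper-Pearson intervals, intervals on shares of a library are Wilson intervals, and both, like the floors, hold counting error alone, since amplified reads that carry no molecular identifier do not stand for separate molecules.

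Sequences come first, because some members could hardly be counted. Of the 81 members, Rpl26 had 0 counts in both libraries, Rpl30 had 4 and 7, Rpl34 had 11 and 9, and Rps27 had 13 and 7, WT first. All 4 encode core ribosomal proteins, and the other members that are not duplicate copies had between 780 and 15613 counts. Each of the 4 has a copy in the count files whose coding sequence is nearly the same over its whole length. For Rps27 and the gene Rps27rt, 252 of 252 coding bases were identical. Rpl30 matched Gm12191 at 344 of 345 bases, Rpl34 matched Rpl34-ps1 at 349 of 351 and Rpl26 matched Gm15772 at 433 of 435. The copies Rps27rt, Gm12191, Rpl34-ps1 and Gm15772 also had 0 counts in both libraries. The stretches that hold the differing bases are printed below from GENCODE M21 transcripts, 5′ to 3′ on the coding strand, with each base that differs from the copy in capitals.

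Rps27 (gene at chr3:90212522-90213651, minus strand, GRCm38; coding bases 1 to 252, none of which differs from Rps27rt): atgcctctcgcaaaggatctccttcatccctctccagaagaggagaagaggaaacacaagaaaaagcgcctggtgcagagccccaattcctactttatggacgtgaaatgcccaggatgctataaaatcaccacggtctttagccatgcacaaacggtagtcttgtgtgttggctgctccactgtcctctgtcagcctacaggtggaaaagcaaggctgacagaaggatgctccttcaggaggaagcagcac
Rpl30 (chr15:34440505-34443640, minus strand; coding bases 66 to 126): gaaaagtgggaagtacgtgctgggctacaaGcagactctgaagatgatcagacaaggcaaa
Rpl34 (chr3:130726831-130730398, minus strand; coding bases 102 to 348): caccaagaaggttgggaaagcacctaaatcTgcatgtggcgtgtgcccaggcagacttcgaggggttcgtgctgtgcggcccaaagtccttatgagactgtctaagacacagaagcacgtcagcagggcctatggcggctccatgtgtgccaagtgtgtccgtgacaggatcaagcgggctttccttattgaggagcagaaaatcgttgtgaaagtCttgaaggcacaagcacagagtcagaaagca
Rpl26 (chr11:68901583-68906989, plus strand; coding bases 147 to 318): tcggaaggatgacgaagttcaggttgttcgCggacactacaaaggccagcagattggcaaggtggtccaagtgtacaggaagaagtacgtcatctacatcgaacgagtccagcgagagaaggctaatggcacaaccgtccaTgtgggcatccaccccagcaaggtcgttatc

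A near-identical copy did not always go with low counts. Rpl37 differs from Rpl37rt at 1 of 291 coding bases and had 2257 counts in WT and 1741 in the KO-labelled library, while Rpl37rt had 38 and 50. Its stretch around that base is shown for comparison, followed by Rps27l, a paralog of Rps27 that kept the same coding length but differs from it at 60 of 252 bases, in capitals. Rps27l had 543 and 471 counts.

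Rpl37 (chr15:5116645-5119140, plus strand; coding bases 219 to 279): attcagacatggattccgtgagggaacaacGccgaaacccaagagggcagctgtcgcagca
Rps27l (chr9:66946086-66949516, plus strand; coding bases 1 to 252, capitals against Rps27): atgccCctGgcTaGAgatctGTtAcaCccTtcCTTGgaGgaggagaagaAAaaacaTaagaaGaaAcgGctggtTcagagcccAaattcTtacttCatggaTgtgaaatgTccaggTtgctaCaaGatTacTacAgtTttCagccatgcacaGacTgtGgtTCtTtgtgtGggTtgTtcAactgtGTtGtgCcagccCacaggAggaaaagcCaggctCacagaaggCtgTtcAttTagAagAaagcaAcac

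To set all members side by side, the coding sequence was cut into windows of 61 bases, the number of sequencing cycles, and each window was looked up in the transcripts of other genes. A coding transcript was annotated for 80 members, all but Rps4l, which is annotated as a processed pseudogene of the X-linked Rps4x. Against every annotated gene, 28 members shared all of their windows, and 1 of these had under 20 counts in a library, while the highest, Rpl13, had 15613 and 12103. Against the genes listed in the count files alone, 57 members shared no window, and 3 of these were under 20 counts, namely the tissue-restricted copies Rpl3l, Rpl10l and Rpl39l. Another 11 members had under 50% of their windows outside other listed genes, and 4 of these, Rps27, Rpl30, Rpl26 and Rpl34, were under 20 counts. The remaining 7 of the 11 had between 935 and 3029 counts, among them Rps23 with 8.40% of its windows outside other listed genes and counts of 2067 and 1776. Which copies the authors' annotation let compete for reads was not tested.

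**Figure D1:**
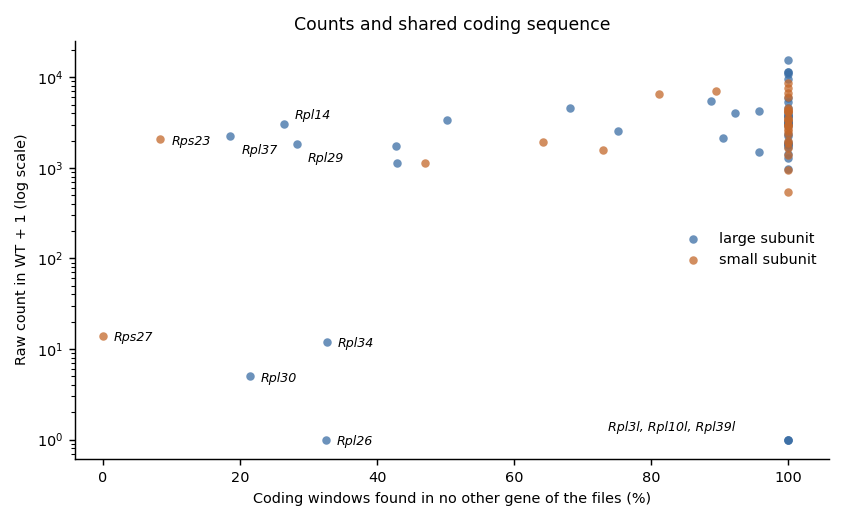
Raw count in the WT library plus 1 (log scale) against the percent of 61-base coding windows found in no other gene of the count files, for the 80 members with a coding transcript, colored by subunit. Rps27, Rpl30, Rpl34 and Rpl26 lie at the lower left, Rps23 and Rpl37 share most windows but have 2067 and 2257 counts, and Rpl3l, Rpl10l and Rpl39l lie at the lower right.

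Leaving out genes below a mean of 1 CPM in the 2 libraries, 77 members were compared, 45 of the large and 32 of the small subunit, out of 12588 genes. The 4 left out were Rpl26, Rpl3l and Rpl10l, at 0 in both libraries, and Rpl39l, at 0 and 2 counts. Of the 77, 73 had a mean of at least 100 normalised counts (43 large, 30 small), and these 73 were also all the members with a mean of at least 100 CPM. Among the rest, only Rps4l was above 20 counts, with 80 and 90.

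The members took 4.80% of gene counts in WT (interval 4.79% to 4.82%) and 5.21% in the KO-labelled library (5.19% to 5.23%), a factor of 1.08. Genes of the large subunit took 2.96% and 3.21%, and those of the small subunit 1.84% and 2.0%. The split between the subunits hardly moved, with the large subunit at 61.7% and 61.5% of the members' counts.

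Levels between genes were compared as CPM per kb of annotated exon. Over the 73 members the median level was 521 in WT and 580 in the KO-labelled library. In the large subunit Rpl13 stood highest at 3473 and 3732 CPM per kb, followed by Rpl37a at 1831 and 2022. Then came Rpl23a, which sits at the mouth of the exit tunnel, at 1424 and 1690, Rpl36 at 1430 and 1674, and Rpl3, which reaches toward the peptidyl transferase center, at 1459 and 1511. The lowest of the 43 were Rpl22, an RNA-binding protein with the paralog Rpl22l1, at 108 and 111 CPM per kb, Rpl31 at 130 and 153, and Rpl18 at 168 and 185. Rpl22 has 2065 bases of annotated exon for 384 coding bases and Rpl18 has 3413 for 564, so both levels depend on the annotated length. In the small subunit Rps6, the main substrate of the S6 kinases, led at 1698 and 1853 CPM per kb. Also high were Rps18 at 1403 and 1610, Rps29 at 1332 and 1481, and Rps2 at 1065 and 1100. Rps15a was lowest at 36.3 and 41.7 CPM per kb, but its annotated exons span 5395 bases for a coding sequence of 390 bases. Likewise Rps20, at 126 and 142, has 3706 bases of exon for 357 coding bases, so these levels rest on the annotated length. Rps27l followed at 162 and 195.

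Most proteins of a subunit are needed in equal numbers. The mRNA levels per kb of exon spanned a factor of 32.0 in WT and 33.8 in the KO-labelled library for the large subunit, and 46.7 and 44.5 for the small one. The low end of the small subunit was Rps15a, whose level rests on its annotated exon length. Before division by length Rps15a had 196 and 225 CPM, and Rps6, at the high end, had 1491 and 1627. The order of the genes was nearly the same in both libraries. Over the 73 members the log2 levels gave a Pearson r of 0.995 and a Spearman rho of 0.988, as a description across genes that share both libraries and each gene's length.

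**Figure D2:**
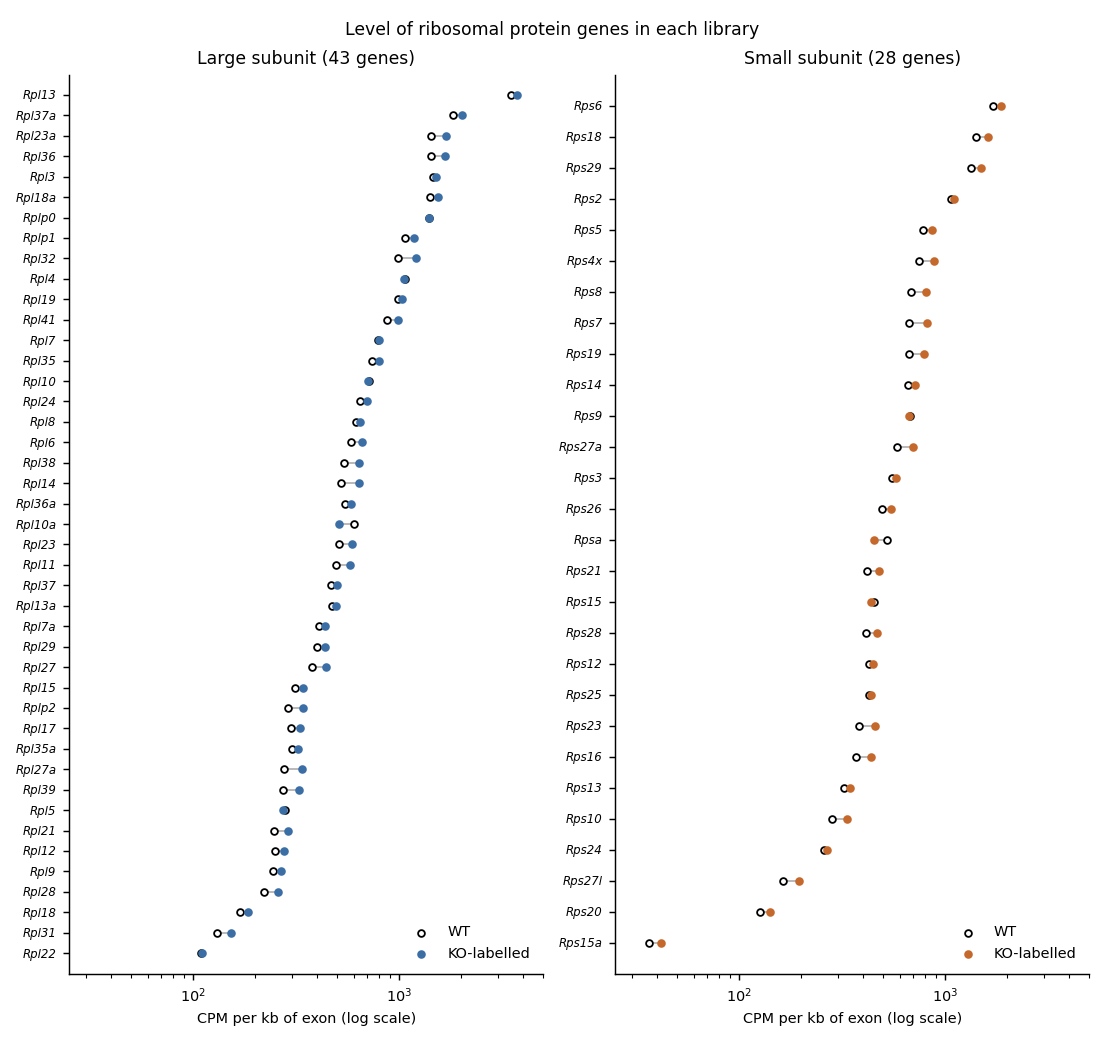
Level of 43 large and 28 of the 30 small subunit genes with at least 100 normalised counts, in CPM per kb of exon on a log scale, with open circles for WT and filled circles for the KO-labelled library, joined by a line. Rpl13 and Rps6 lead their subunits, and the filled circle lies to the right of the open circle for most genes.

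Ratios are given as log2 of the KO-labelled library over WT, on counts divided by the size factor of each library plus 1. Most members were a little higher in the KO-labelled library, and none of the well-counted ones differed by much. The median log2 ratio was 0.11 over the 77 members, 0.10 for the large and 0.13 for the small subunit, against -0.0032 over all genes compared and -0.02 over the 2519 genes of at least 100 CPM. Of the 77, 65 (84.4%) were higher, 38 of 45 in the large and 27 of 32 in the small subunit, where 49.6% of all genes compared were higher. The other 12 were lower, where 50.4% of all genes were. Over the 73 members of at least 100 CPM, 62 were higher and 11 lower, against 45.6% and 54.4% of genes at that level. The members also lay close together, with an interquartile range of 0.15 over the 73 and 0.29 over the genes of at least 100 CPM. The 2 sets differ in depth, with a median of 566 CPM for the 73 and 172 CPM for those genes. Lower counts scatter more by counting error, and the part of depth in this difference was not tested.

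Single members differed by little. At least 2-fold higher was 1 of 77, Rpl30 at 4 and 7 counts, where 4.91% of genes were, and its interval of -0.73 to 3.47 spans 0. None was at least 2-fold lower, where 3.90% of genes were. A smaller limit of 0.32 on the log2 scale was passed upward by 2 members, Rpl30 and Rps4l, against 20.2% of genes, and downward by 1, Rps27, against 21% of genes. None of the 73 members of at least 100 CPM passed this limit in either direction. Of genes at that level, 5.12% were higher and 9.61% lower by the smaller limit, and 0.278% were higher and 0.357% lower by 2-fold. The counting interval lay wholly above 0 for 48 of 77 members, 26 of the large and 22 of the small subunit, against 19.2% of genes. It lay wholly below 0 for 2, Rpl10a and Rpsa, against 20.8%. For the 73 these counts were 47 and 2, where 23.3% and 29.3% of genes of at least 100 CPM had such intervals. Deeper counts give narrower intervals, and the median level was 561 CPM over the 77 members and 36.3 CPM over all genes compared.

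**Figure D3:**
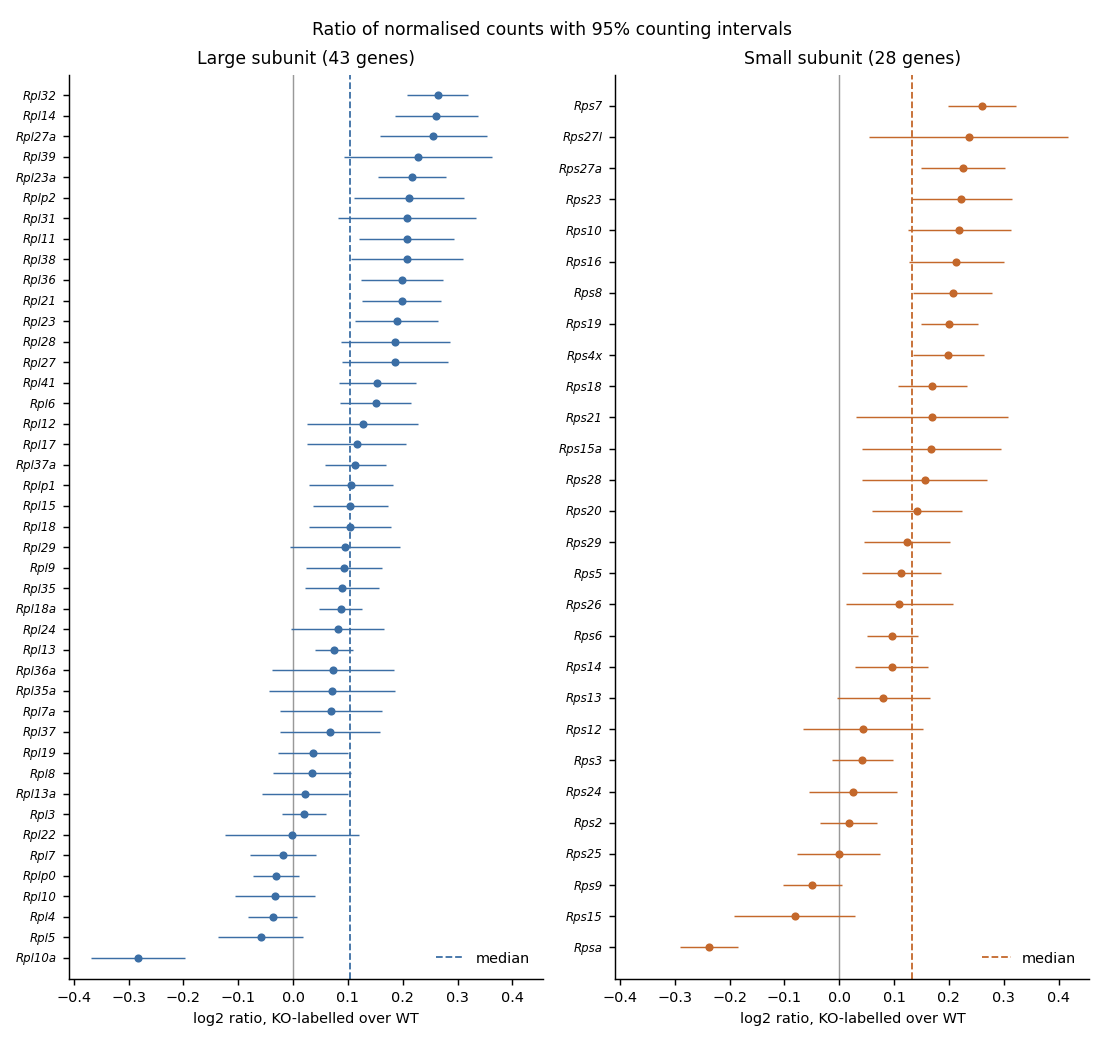
Log2 ratio of normalised counts, KO-labelled library over WT, for 43 large and 28 of the 30 small subunit genes with at least 100 normalised counts; bars are 95% counting intervals and the dashed line is the median of all such genes of the subunit. Rpl10a and Rpsa lie apart at the low end, and no gene passes 0.27 at the high end.

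Among large subunit members of at least 100 normalised counts the highest ratio belonged to Rpl32 (chr6:115805505-115808747, minus strand, a protein-coding gene as are all members but Rps4l). Its 5484 counts in WT and 4848 in the KO-labelled library scaled to 4706 and 5649, a log2 ratio of 0.26 (0.21 to 0.32). Rpl14, with 3029 and 2673 counts, and Rpl27a, with 1837 and 1615, also stood at 0.26. Next came Rpl39, which lines the exit tunnel, at 0.23 and Rpl23a at 0.22. Among these, Rpl23a shares 55.4% of its transcript with exons of Tlcd1 on the other strand, and Rpl14 has 26.4% of its coding windows outside other listed genes.

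At the other end of the large subunit was Rpl10a (chr17:28328471-28331033, plus strand), the protein of the mobile L1 stalk that guides used tRNA out of the ribosome. It had 2894 counts in WT and 1752 in the KO-labelled library, which scaled to 2483 and 2042. This was a log2 ratio of -0.28 (-0.37 to -0.20), and none of its coding windows occurred in another gene of the count files. Against all annotated genes only 3 of its 588 coding windows were its own, and 585 occurred in Rpl10a-ps1. Far nearer to 0 followed Rpl5 at -0.06, Rpl4, whose loop lines the tunnel, at -0.04, Rpl10, which joins late in assembly, at -0.03, and Rplp0 at -0.03.

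In the small subunit the highest well-counted member was Rps7 (chr12:28630854-28635953, minus strand), with 4381 and 3864 counts, 3760 and 4503 after scaling, and a log2 ratio of 0.26 (0.20 to 0.32). Rps27l stood at 0.24, Rps27a, which is made as a fusion with ubiquitin, at 0.23, and Rps23, a protein of the decoding center, and Rps10 both at 0.22. The lowest of these well-counted members was Rpsa (chr9:120127689-120132369, plus strand), a protein at the back of the small subunit that is also known as the laminin receptor. It had 7634 counts in WT and 4769 in the KO-labelled library, or 6551 and 5557 normalised counts, and a log2 ratio of -0.24 (-0.29 to -0.18). Against all annotated genes 35 of its 825 coding windows were its own. Above it were Rps15 at -0.08, Rps9 at -0.05, Rps25 at -0.0013 and Rps2 at 0.02. For Rps15 and Rps9 the counting interval spanned 0.

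The members were also read by shared roles. The stalk proteins, which recruit elongation factors, were split, with Rplp0 at -0.03 (10899 and 7855 counts), Rplp1 at 0.11 (3082 and 2442) and Rplp2 at 0.21 (1753 and 1495). Of the 2 proteins that carry 5S ribosomal RNA and can bind Mdm2, Rpl5 was at -0.06 (-0.14 to 0.02) and Rpl11 at 0.21 (0.12 to 0.29). Rpl5 shares 46.6% of its transcript with exons of Fam69a on the other strand, and the strand setting of the counting was not given in the sources used here.

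Among 10 genes whose loss underlies Diamond-Blackfan anemia or, for Rps14, the anemia of the 5q deletion, 9 were higher, where 49.6% of all genes were, and the median log2 ratio was 0.14. With the length and GC trend removed, 6 were higher and the median was 0.016. Rps19, the gene most often affected, had 6573 and 5563 counts and a ratio of 0.20 (0.15 to 0.25). Rps7, Rps10 and Rpl11 were given above. Among the others, Rps26 was at 0.11, Rps14 at 0.10, Rpl35a at 0.07 and Rps24 at 0.03, and Rpl5 was the lower one. Erythroid marker genes also had a higher sum in the KO-labelled library, most of it from Car2 (values above), and their part in these ratios was not tested.

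The 4 X-linked members gave 0.23 for Rpl39, 0.20 for Rps4x, 0.07 for Rpl36a and -0.03 for Rpl10. Rps4l (chr6:148354656-148355598), the copy of Rps4x, had 80 and 90 counts, 68.7 and 105 after scaling, and a log2 ratio of 0.60 (0.16 to 1.06). Of the 5 members that are duplicate copies of others, Rpl3l and Rpl10l were thus at 0 in both libraries and Rpl39l at or under the floor in both, so no fold is given.

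Members of the cytosolic ribosome, or close paralogs, with symbols outside the rule gave ratios from -0.34 to 0.27. Fau was at 0.27, Rpl36al at 0.23, Rps3a1 at 0.14 and Rpl22l1 at 0.08. Lower were Gnb2l1, the scaffold RACK1, at -0.12 and Rpl7l1 at -0.34. The median over these 7 was 0.14.

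Other parts of the protein synthesis machinery were set beside the members. The 77 mitochondrial ribosomal protein genes had a median log2 ratio of 0.04, with 43 higher, where 49.6% of all genes were, and 34 lower, from -0.61 for Mrpl2 to 0.63 for Mrpl55. With the length and GC trend removed, as described below for the members, their median was -0.032 and 35 were higher. The 31 initiation factors compared had a median of -0.08, with 11 higher and 20 lower, against 49.6% and 50.4% of all genes. Their extremes were Eif5b at 0.31 and Eif2s3x at -0.48. The 5 elongation factors had a median of -0.04, from 0.10 for Eef1b2 to -0.26 for Eef1a1, which carried 33616 and 20735 counts. Of 6 other genes with pyrimidine-start mRNAs the median was 0.03, with 5 higher, where 49.6% of all genes were. They ranged from -0.01 for Nap1l1 to 0.48 for Hnrnpa1 at 28 and 29 counts, and all of their counting intervals spanned 0. With the length and GC trend removed, 2 of these 6 were higher and their median was -0.0092. Of 52 assembly factors 16 were higher and 36 lower, against 49.6% and 50.4% of all genes, with a median of -0.12. The limit of 0.32 was passed downward by 9, where 21% of all genes did, and upward by none. The extremes were Nmd3, an export adaptor of the large subunit, at 0.28 and Wdr75 at -0.90. The 14 genes of RNA polymerase I and its factors had a median of -0.12, with 5 higher and 9 lower, against the same shares of all genes. They ranged from 0.32 for Taf1d to -0.77 for Polr1a. None of the genes in these lists passed 2-fold. With the length and GC trend removed, the medians of initiation, elongation, assembly and polymerase I genes were -0.10, 0.0078, -0.12 and -0.064.

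**Figure D4:**
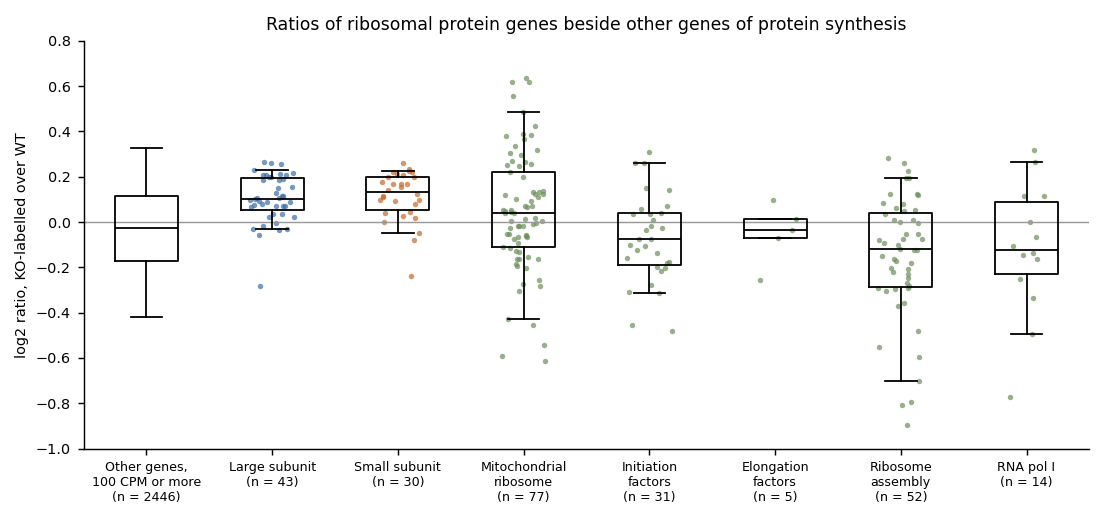
Log2 ratio, KO-labelled library over WT, for 2446 other genes of at least 100 CPM, the 43 large and 30 small subunit genes with at least 100 normalised counts, and 5 other lists of protein synthesis genes; boxes show the quartiles and median, whiskers the 5th to 95th percentile, and points single genes, spread sideways for sight only. The large and small subunit boxes lie above 0, with medians of 0.10 and 0.13, and the assembly factor box has its median at -0.12.

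The ratio moved with gene length over all genes, and ribosomal protein genes are short. Genes with a known exon length were put into 10 groups from shortest to longest. In the shortest group, 64 to 1315 bases of exon, the median log2 ratio of the other genes was 0.10, and 55 of the 77 members fell there with a median of 0.14. In the second group (1315 to 1822 bases) other genes were at 0.02 and 11 members at 0.08. In the third the values were -0.0056 and, over 5 members, 0.03. From the fourth group on, the medians of other genes lay between -0.043 and -0.0046. The few longer members stood higher, with 3 members at 0.093 in the fourth group where other genes were at -0.029, 2 at 0.12 in the sixth where they were at -0.037, and 1, Rps15a, at 0.17 in the eighth where they were at -0.025. Over 7990 other genes of at least 100 normalised counts, the Pearson r of the ratio with exon length was -0.062. Within the members the ratio was also lower for longer coding sequences, with a Pearson r of -0.40 over the 73 (-0.46 large, -0.30 small). The Spearman rho was -0.38 over the 73 and -0.52 for the large subunit, but only -0.13 for the small one. The Pearson r was -0.20 with exon length and -0.06 with GC content. These are descriptions across genes that share both libraries.

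**Figure D5:**
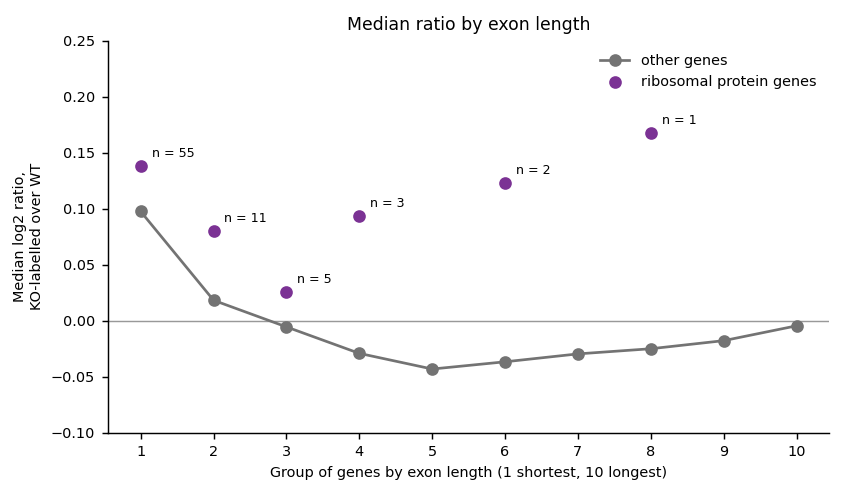
Median log2 ratio, KO-labelled library over WT, of other genes (grey line) and of ribosomal protein genes (purple points, with their number) in 10 groups of genes by exon length. The grey line is highest in the shortest group, at 0.10, where 55 members have a median of 0.14.

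The trend of the ratio with exon length and GC was then taken out over all genes, and the median of the 77 members went from 0.11 to 0.0091. The large subunit stood at -0.0017 and the small subunit at 0.014, and 40 of 77 members were higher, where 49.4% of genes were. Rpl10a was at -0.40 after this step and Rpsa at -0.22, Rpl32 at 0.16 and Rps7 at 0.15. The entry for more than 1 alignment, listed apart from the genes, was 10.7% of all entries in WT and 12.3% in the KO-labelled library. The counter is unknown, and so is whether a read with several alignments was tallied there once or more. The part of this entry in the ratios was not tested.

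The promoters of the members were also read for shared letters. RefSeq windows on GRCm38.p6, from 250 bases before to 50 after the start, were found for 60 of the 81 members in 72 windows. The 50 bases from 30 before to 20 after the start are shown for the member with the highest level and for the members with extreme ratios that were matched. Capitals mark the longest run of C and T that touches the 10 bases on either side of the start.

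Rpl13 (chr8:123102320-123102369, plus strand, highest level): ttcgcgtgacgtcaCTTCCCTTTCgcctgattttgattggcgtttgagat
Rps6 (chr4:86857348-86857397, minus strand, highest level of the small subunit): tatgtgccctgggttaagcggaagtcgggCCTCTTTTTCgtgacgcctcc
Rpl14 (chr9:120571487-120571536, plus strand, ratio 0.26): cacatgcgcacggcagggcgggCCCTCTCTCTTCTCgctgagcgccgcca
Rps7 (chr12:28635934-28635983, minus strand, ratio 0.26): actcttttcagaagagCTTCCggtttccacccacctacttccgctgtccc
Rpsa (chr9:120127736-120127785, plus strand, ratio -0.24): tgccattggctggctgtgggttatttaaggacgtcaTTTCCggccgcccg
Rpl10a (chr17:28328535-28328584, plus strand, ratio -0.28): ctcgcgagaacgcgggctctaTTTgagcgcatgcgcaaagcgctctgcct

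The run was 10 bases long in Rpl13 and in Rps6, 14 in Rpl14, 5 in Rps7 and in Rpsa, and 3 in this Rpl10a window. RefSeq lists a second start for Rpl10a, where the run was 7. These are lengths of the whole run. For the shares only the part of a run inside the 10 bases on either side of the start was counted, which was 4 in Rpl13. Such a part of at least 8 bases was present in 20 of 72 member windows (27.8%), 29.5% for the large and 25% for the small subunit. It was present in 7.43% of all 32851 windows and 7.96% of those of the genes compared. Each of 6 short motifs was searched over the 300 bases on both strands. CGGAAG, the core that ETS factors bind, was in 61.1% of member windows, 54.5% for the large and 71.4% for the small subunit, against 16.9% of all windows and 30.3% of those of the genes compared. CTCTTTC, which overlaps the pyrimidine runs, was in 27.8% of member windows against 8.16% of all and 7.29% of those of the genes compared. CTTCCT, which can lie in the same runs, was in 54.2% against 35.4% and 34.0%. AAGATGG, the core bound by YY1, was in 15.3% against 6.34% and 7.03%. CACGTG, the E-box bound by Myc among others, was in 11.1% of member windows, 15.9% for the large and 3.57% for the small subunit, against 7.15% of all and 10.04% of those of the genes compared. TATAAA was in 8.33% of member windows against 13.6% of all and 7.01% of those of the genes compared. A match is a description of letters in the window and says nothing of whether a factor was bound in these cells.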

How the data were processed

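RNA-seq counts of 2 libraries were used. Each deposited file gives counts per gene symbol, which the authors left without normalisation. Per the labels and the study's methods, SMARTer cDNA was sequenced as single-end reads, aligned to mm10 with TopHat2 2.0.13 and Bowtie2 2.1.0, and StringTie was named for the counting. The files close with 5 entries in the style of htseq-count (no feature, 44.9% of entries in WT and 44.1% in the other library; ambiguous, 0.532% and 0.539%; more than 1 alignment, 10.7% and 12.3%; the remaining 2 at 0), so the counter and its strand setting remain unknown. These entries were kept out of gene totals.

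Counts were divided by DESeq2 1.42.0 median-of-ratios size factors (1.17 for WT, 0.858 for the other library) in R 4.3.3, and log2 ratios used a pseudocount of 1. Neither DESeq2 nor edgeR 4.0.16 can be fitted as a test with 1 library per group, so no p-value is given, and edgeR served for TMM scaling only. A fold rule stands in for a call. Levels were CPM per kb of the union of exons in GENCODE M21 (GRCm38), which placed 24022 symbols, 646 of them by an older name. To take out a trend of the ratio with length and GC, medians over 40 bins of each were subtracted. Shared sequence was sought among GENCODE M21 transcripts of both strands, where a search of the genome had been planned. It was computed against all annotated genes and then, after the values were seen, against genes of the count files, and an earlier form used the longest transcript. Promoter windows came from RefSeq GRCm38.p6. Other steps used pandas 2.3.3, scipy 1.17.1, numpy 2.4.6 and matplotlib 3.10.9 in Python 3.11.15, and the procedure was tested on simulated data.

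Members, lists, motifs and named genes were chosen with earlier results of these data known. In each subunit the rule named the 5 highest and 3 lowest levels per length, the 5 largest ratios in each direction among members of at least 100 normalised counts, members past 2-fold and members of 5 role lists, and of other lists the genes past 2-fold and the extremes. Some genes under this rule are not reported here or drawn by name. The lowest levels were taken among members of at least 100 normalised counts. Members under 20 counts and their copies, with Rpl37, Rps23 and Slamf1, were singled out after their values were seen. Alternatives were TMM and total-count scaling, size factors without the members, pseudocounts of 0.5 and 5, other filters and folds, thinning, the trend above, and leaving out kinds of members.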

Additional observations from a re-analysis of the deposited data

Results flagged for a closer look

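The entry for more than 1 alignment, which no comparison of gene counts uses, made up 12.3% of all entries in the KO-labelled library (labelled Ezh2 KO). The 95% Wilson interval was 12.25% to 12.29%. In WT the entry made up 10.7% (10.73% to 10.77%), and the factor was 1.14. The result is given here because it lies outside the gene counts and above the WT level. The entry is 1 total per library, so how much of it came from ribosomal protein genes and their copies was not tested.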

How the results depend on the processing

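No paired analysis was possible because there was only 1 library on each side. No replicate could be left out either. With the length and GC trend removed, the median log2 ratio went from 0.11 to 0.0091 over all members, to -0.0017 (a change of sign) for the large subunit and to 0.014 for the small subunit, and with the trend fitted without the members (chosen after seeing the data) to 0.016, 0.015 and 0.021. The members higher by any amount then went from 65 to 40 (41 with the second fit) and those lower from 12 to 37 (36). All other alternatives, among them TMM, total-count scaling and thinning, kept these counts within 1.5 times. They also kept each median between the median lower end and the median upper end of the single members' counting intervals. That band is wide, at 0.03 to 0.20 over all members, and is not an interval of the median itself. The counts past a fold rest on Rpl30, Rps27 and Rps4l. Members higher by 2-fold went from 1 to 0 with a pseudocount of 5, a minimum of 10 or 100 CPM, either trend removal, or without overlapped members, members sharing windows with a listed gene, or members under 100 normalised counts, and to 2 with no filter or at 1.5-fold. Members lower by 2-fold stayed at 0. At a log2 limit of 0.32, members higher went from 2 to 1 with a minimum of 10 CPM or without duplicate copies, overlapped members or members sharing windows, and to 0 with a minimum of 100 CPM or 100 normalised counts. Members lower by that limit went from 1 to 0 with a pseudocount of 5, either minimum, thinning, or without members sharing windows or under 100 normalised counts, and to 2 with either trend removal. The 3 sets of left-out members (overlapped, sharing windows, under 100 counts) were chosen after seeing the data. The members' share of 4.80% and 5.21% became 2.11% and 2.25% of all entries (a factor of 1.07) and 5.16% and 5.57% of gene counts without the 20 most abundant other genes. With the longest transcript as length, the median level of the small subunit went from 535 to 603 CPM per kb in WT and from 562 to 611 in the other library. Of 77 single ratios, 50 moved beyond their counting interval when the trend was removed and none under other scalings or pseudocounts. Depth limits the members under 20 counts, whose intervals span several fold. The causes were not tested.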
